A study of Mus musculus with 6 samples.

Results

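The polypyrimidine tract binding (PTB) proteins are RNA-binding proteins of the hnRNP class, encoded in the mouse by the paralogs *Ptbp1*, *Ptbp2* and *Ptbp3*. The rows with these 3 gene names were taken from the 55060 genes measured, and all 3 were among the 21211 genes that entered the test, for which the mean FPKM had to reach 0.1. FPKM is the number of fragments on a gene divided by the length of the gene and by a size set for the library, so that levels of different genes can be set side by side. RNA was sequenced from islets of Langerhans, the endocrine clusters of the pancreas, in 3 Ctrl and 3 cKO samples of mice 12 weeks old. In the cKO mice (*Ins2*-Cre with *Parn* f/f), the Cre recombinase driven by the *Ins2* promoter removes exon 7 of *Parn*, which encodes a poly(A)-specific ribonuclease, in β cells. The Ctrl samples came from *Parn* f/f mice and other littermates, and the labels do not say which sample had which of these genotypes. The islets were freed with collagenase and picked by hand, so the α, δ, endothelial and other cells of the islet, in which Cre is not driven, are part of every sample.

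PTB proteins bind stretches of RNA rich in C and U. In introns they repress the use of nearby exons, and in 3′ untranslated regions (3′ UTRs) they alter the stability and translation of mRNAs. PTBP1 is present in most cell types and gives way to PTBP2 during the maturation of neurons, whereas PTBP3 was first known from blood cells. In β cells, PTBP1 is known to bind the mRNAs of insulin and of secretory granule proteins and to raise their stability and translation when glucose is high.

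The 3 genes share the layout of their coding exons from an exon of 34 bases to the stop codon. For each gene, 1 GENCODE transcript on GRCm38 was chosen out of 6 protein-coding ones in *Ptbp1*, 5 in *Ptbp2* and 9 in *Ptbp3*. The exon and codon numbers given here hold for these transcripts and can differ in others. The exon was exon 9 of 13 in *Ptbp1* and exon 10 of 14 in *Ptbp2* and *Ptbp3*, and the exons after it held 93, 217, 78 and 133 coding bases in each gene. Since 34 bases leave a remainder of 1 when divided into codons, a transcript without this exon changes its reading frame. In each chosen transcript, such a frame met a stop codon in the next exon, at codon 314 in place of the 489 codons of the *Ptbp1* transcript, at 357 of 532 in *Ptbp2* and at 348 of 523 in *Ptbp3*, with 3 exons left downstream. Skipping of this exon in *Ptbp2* is a well-known target of PTBP1 and is followed by nonsense-mediated decay of the transcript. Annotated transcripts that lacked the exon were 2 in *Ptbp1*, both labelled as nonsense-mediated decay, 3 in *Ptbp2*, of which 2 had this label and 0 were labelled as coding, and 0 in *Ptbp3*.

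The exon is shown because it links the 3 genes to each other. It lies at chr10:79862014-79862047 on the plus strand in *Ptbp1*, at chr3:119724612-119724645 on the minus strand in *Ptbp2* and at chr4:59485339-59485372 on the minus strand in *Ptbp3* (GRCm38). In the sequences, written 5′ to 3′ on the coding strand, capitals mark the 19 of 34 bases that are identical in all 3 genes.
Ptbp1 exon 9: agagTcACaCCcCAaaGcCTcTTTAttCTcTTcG
Ptbp2 exon 10: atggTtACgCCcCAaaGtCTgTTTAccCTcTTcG
Ptbp3 exon 10: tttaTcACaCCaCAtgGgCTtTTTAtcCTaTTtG
*Ptbp1* and *Ptbp2* were identical at 26 of these bases, *Ptbp1* and *Ptbp3* at 22, and *Ptbp2* and *Ptbp3* at 21. FPKM sums the reads of a whole gene, so the use of this exon cannot be read from the values that follow.

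**Figure D1:**
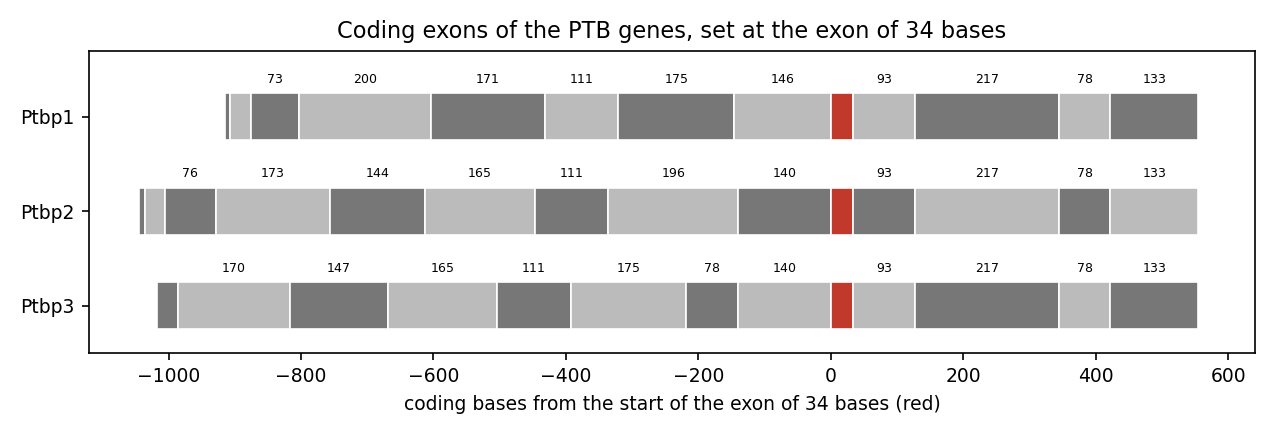
Coding exons of 1 chosen transcript of each PTB gene, drawn to scale in coding bases and set at the start of the exon of 34 bases (red), with the bases of the larger exons written above and grey shades alternating between exons. From the red exon on, the 3 genes have exons of 93, 217, 78 and 133 coding bases, whereas before it only some sizes, such as 111, are found in all 3 transcripts.

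The paralogs were distinct enough for their reads to be told apart. Over the aligned coding bases, 70.5% were identical between *Ptbp1* and *Ptbp2*, 71.2% between *Ptbp1* and *Ptbp3* and 69.6% between *Ptbp2* and *Ptbp3*, and the longest run of bases shared by transcripts of a pair was 21 bases. Of the windows of 50 bases in the *Ptbp1* transcript, 4.63% were also found in *Gm4900*, a processed pseudogene, whose FPKM was 0 to 0.352 over the 6 samples. The other 2 genes shared 0% of such windows with another annotated gene.

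The libraries held 16289408 to 17944775 reads on genes. The size by which the authors divided was a scaled one, 15731223 to 18085944, which was smaller than the reads on genes in all 3 Ctrl samples and larger in all 3 cKO samples, and 1 read on a gene of 1 kilobase was worth 0.0553 to 0.0636 FPKM. β-cell markers (*Ins1*, *Ins2*, *Mafa*, *Pdx1*, *Nkx6-1*, *Slc2a2*, *G6pc2* and *Iapp*) were abundant in every sample, as the label islet implies, and *Ins2* alone took 14.7% to 22.7% of all reads. *Parn*, the targeted gene, was at 6.64, 8.34 and 7.38 FPKM in Ctrl and at 4.97, 4.61 and 6.15 in those of cKO (log2 fold change -0.44, unadjusted p = 0.0135, limma adjusted p = 0.545). Its cKO samples all lay below the Ctrl samples, but transcripts without exon 7 are still counted, as are those of cells that are not β cells. Ctrl replicate 1 stood apart, with 983 as the summed FPKM of 9 leukocyte markers against 154 to 257 in the other 5 samples, and 11.6 as that of 5 proliferation markers against 1.47 to 3.23. The summed FPKM of 4 Y-linked genes (*Ddx3y*, *Eif2s3y*, *Kdm5d* and *Uty*) was 0 in Ctrl replicate 3 and cKO replicate 2 and 28.7 in cKO replicate 3, where *Xist*, the RNA of the inactive X chromosome, was at 0.139. The remaining 3 samples held both *Xist*, at 20.4 to 29.9, and the Y-linked genes, at 2.99 to 14.3, while the labels give neither the sex of the mice nor whether islets of several mice were pooled. The p-values measure the spread between these samples, and fewer cells of a type cannot be told apart from less RNA per cell in any of the values.

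*Ptbp1* (ENSMUSG00000006498, chr10:79854427-79864771, plus strand) encodes the widely expressed PTB protein. It was the most abundant of the 3 genes in each sample. FPKM values were 31.2, 32.5 and 34.3 for Ctrl, in the order of their replicate numbers 1 to 3, and 33.4, 31.7 and 29.1 in those of cKO. The 2 groups overlapped, and both the lowest cKO sample and the highest Ctrl sample were those numbered 3. Ctrl islets averaged 32.7 ± 1.58 (SD, n = 3) and cKO islets 31.4 ± 2.14. The log2 fold change on log2(FPKM + 1) was -0.06 (standard error 0.0844, unadjusted p = 0.532, limma adjusted p = 0.909). The 95% interval of the fold of FPKM + 1 was 0.836 to 1.11, so the test could not tell a fall of that size from a rise of that size or from no change.

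*Ptbp2* (ENSMUSG00000028134, chr3:119718742-119784466, minus strand) encodes the PTB protein of neurons. It was the least abundant of the 3 in each sample. Its FPKM was 2.62, 2.18 and 2.33 for Ctrl and 2.39, 2.30 and 2.75 for cKO, in the same order. The groups overlapped, with cKO replicate 3 highest and Ctrl replicate 2 lowest. Ctrl islets averaged 2.38 ± 0.221 (SD, n = 3) and cKO islets 2.48 ± 0.237. The log2 fold change was 0.04 (standard error 0.113, unadjusted p = 0.717, limma adjusted p = 0.953). The 95% interval of the fold of FPKM + 1 was 0.854 to 1.24. At so low a level the added 1 draws the fold toward no change. With 0.01 added in its place, the log2 fold change was 0.060. The *Ptbp2* values rested on 315 to 456 reads per sample, and the counting error of 5.11% was about as large as the distance between the 2 means.

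*Ptbp3* (ENSMUSG00000028382, chr4:59471868-59549364, minus strand), also known as *Rod1*, was the member that differed between the genotypes by more than the spread within them. Its FPKM was 23.3, 21.3 and 23.8 for Ctrl and 19.3, 18.8 and 19.7 for cKO. The 2 groups did not overlap, with the highest cKO sample below the lowest Ctrl sample. Ctrl islets averaged 22.8 ± 1.31 (SD, n = 3) and cKO islets 19.3 ± 0.457, a difference of -15.3%. The log2 fold change was -0.23 (standard error 0.0767, 95% interval -0.41 to -0.04), with an unadjusted p of 0.0227 that did not pass adjustment over all genes (limma adjusted p = 0.583). Between 2446 and 3035 reads lay behind each value, and the counting error of 1.93% was smaller than the difference. The size of the difference depended on the scaling. As CPM over the reads on genes, *Ptbp3* was at 173, 152 and 172 in Ctrl and 149, 150.2 and 149 in cKO, still without overlap, and limma's voom, which scales by these reads, gave -0.15 (unadjusted p = 0.166), with a median over all genes of 0.07.

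**Figure D2:**
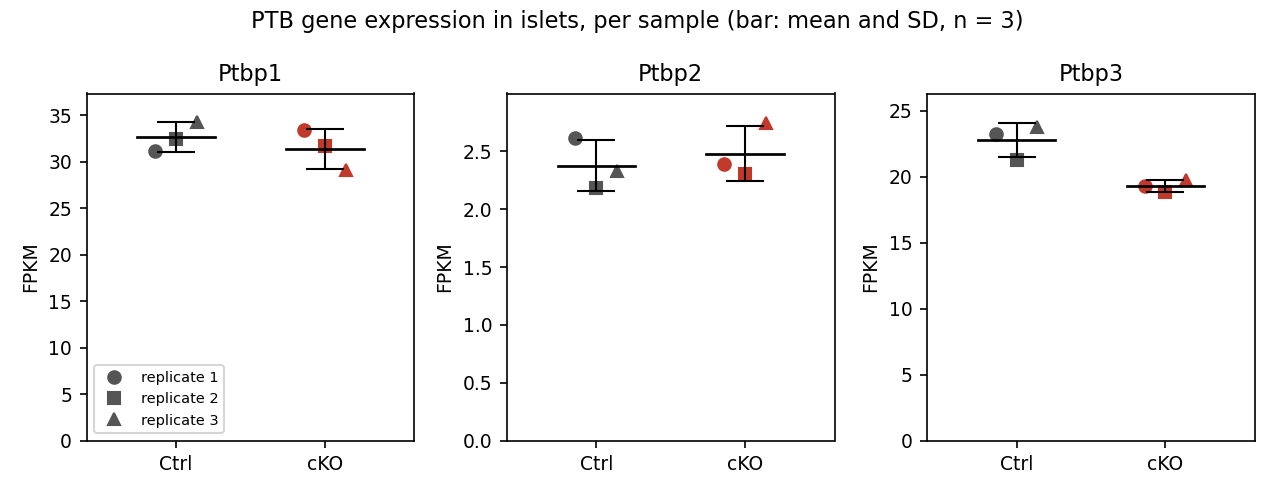
FPKM of *Ptbp1*, *Ptbp2* and *Ptbp3* (vertical axes, each from 0 with its own scale) in the 3 Ctrl and 3 cKO samples, with the shape of a point giving the replicate number and the bars the mean and SD. The cKO samples of *Ptbp3* sit at 18.8 to 19.7, below all Ctrl samples at 21.3 to 23.8, whereas the groups of the other 2 genes overlap.

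The *Ptbp3* difference can be set against those of the whole transcriptome. Over all genes tested, 0 passed an adjusted p of 0.05 (0.00%), 1570 passed at an unadjusted p of 0.05, and limma's voom on the reads called 2 after adjustment. The paper, with DESeq2, reports many genes up and many down between these groups, at a threshold that its text does not give. The limma fit on FPKM stands in for that test here, and the methods need not call the same genes. At the unadjusted threshold, 919 genes (4.33%) were higher and 651 (3.07%) lower in cKO, against 1500 higher and 328 lower with voom. Of the PTB genes, 0 were in the first group and 1, *Ptbp3*, in the second. Without regard to p, 1508 genes (7.11%) had all cKO samples above all Ctrl samples and 1278 (6.03%) had them below, and *Ptbp3* was again the 1 member among the latter. A log2 fold change at or below that of *Ptbp3* was found for 2994 genes, so its difference was small in size, and the median over all genes was -0.01.

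An exact two-sided permutation test over the 20 assignments of the samples gave p = 0.1 for *Ptbp3*, which is the smallest value that 3 samples against 3 can give, p = 0.5 for *Ptbp1* and p = 0.6 for *Ptbp2*. The sign of the *Ptbp3* difference was negative in 17 of 17 other ways of processing, and its unadjusted p was under 0.05 in 11 of them. Many of these ways could not have turned the sign. The filters, the fit without trend and the replicate block left the log2 fold change unchanged. With groups that do not overlap, no pseudocount and no single sample left out can reverse the sign. Without Ctrl replicate 1, the sample with the leukocyte RNA, the log2 fold change of *Ptbp3* was -0.21 with an unadjusted p of 0.0532. Leaving out any of 4 samples (Ctrl replicate 1 or 3, cKO replicate 1 or 2) took the p past 0.05, while the value stayed between -0.27 and -0.20 over the 6 such fits. In the pair of samples with no reads on the Y-linked genes, *Ptbp3* was at 23.8 in Ctrl replicate 3 and at 18.8 in cKO replicate 2. This sets 1 sample against 1, the highest Ctrl and the lowest cKO value, and the part of sex in the difference was not tested.

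**Figure D3:**
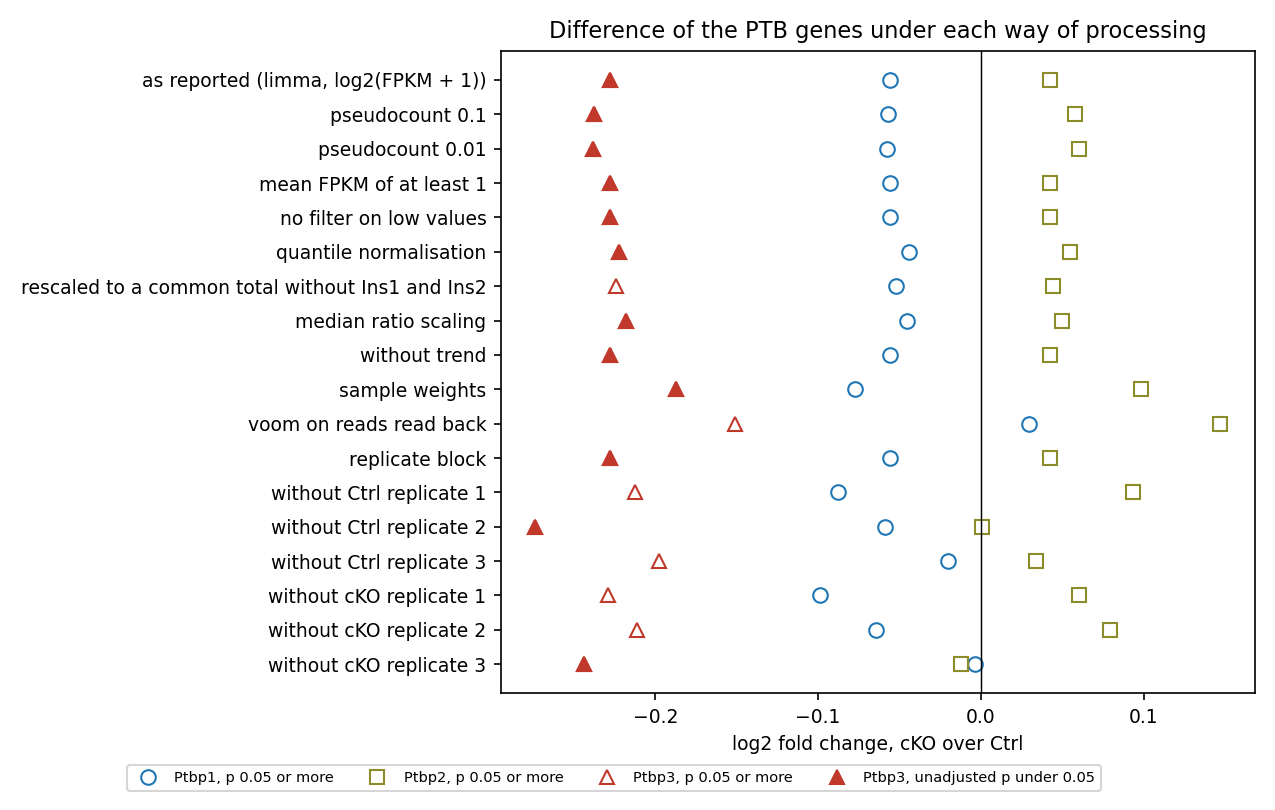
Log2 fold change of the 3 PTB genes (horizontal axis, cKO over Ctrl) as reported and under 17 other ways of processing (rows), with filled symbols for an unadjusted p under 0.05. *Ptbp3* lies left of 0 in every row, from -0.27 to -0.15, while *Ptbp1* crosses 0 with voom and *Ptbp2* without cKO replicate 3.

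In all 6 samples the order of levels was *Ptbp1*, *Ptbp3*, *Ptbp2*, with no overlap between the genes, at 29.1 to 34.3, 18.8 to 23.8 and 2.18 to 2.75 FPKM. Among the genes tested, 94.8% had a lower mean FPKM than *Ptbp1*, 91.6% a lower one than *Ptbp3* and 52.6% a lower one than *Ptbp2*. Summed over the 3 genes, the FPKM was 55.9 to 60.4 in Ctrl and 51.6 to 55.0 in cKO, again without overlap. This separation rests on the library sizes of the authors. As CPM over the reads on genes, *Ptbp1*, the largest part of the sum, was at 147, 147 and 158 in Ctrl and 163, 161 and 139 in cKO. *Ptbp1* made up 56.5% ± 1.73 (SD, n = 3) of this sum in Ctrl and 59.0% ± 2.26 in cKO, *Ptbp3* 39.4% ± 1.36 and 36.3% ± 1.70, and *Ptbp2* 4.12% ± 0.409 and 4.67% ± 0.567. The shares overlapped between the groups, since *Ptbp3* took 38.23% in cKO replicate 3 and 38.04% in Ctrl replicate 2.

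The ratio of *Ptbp3* to *Ptbp2* within a sample does not depend on how the libraries were scaled. It was 8.88, 9.75 and 10.2 in Ctrl and 8.08, 8.18 and 7.18 in cKO, so the cKO samples all lay below the Ctrl samples. The ratio of *Ptbp1* to *Ptbp3* was 1.34, 1.53 and 1.44 in Ctrl and 1.73, 1.69 and 1.48 in cKO, and the groups overlapped through cKO replicate 3. The ratio of *Ptbp1* to *Ptbp2* was 11.9, 14.9 and 14.7 in Ctrl and 14.0, 13.8 and 10.6 in cKO, and the groups overlapped in part, with the lowest of all in cKO and the highest in Ctrl. cKO replicate 3, the sample with *Xist* near 0, had the lowest *Ptbp1* and the highest *Ptbp2* of all 6 samples, and the part of sex in this was not tested. These ratios were chosen with the gene values known and carry no test.

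**Figure D4:**
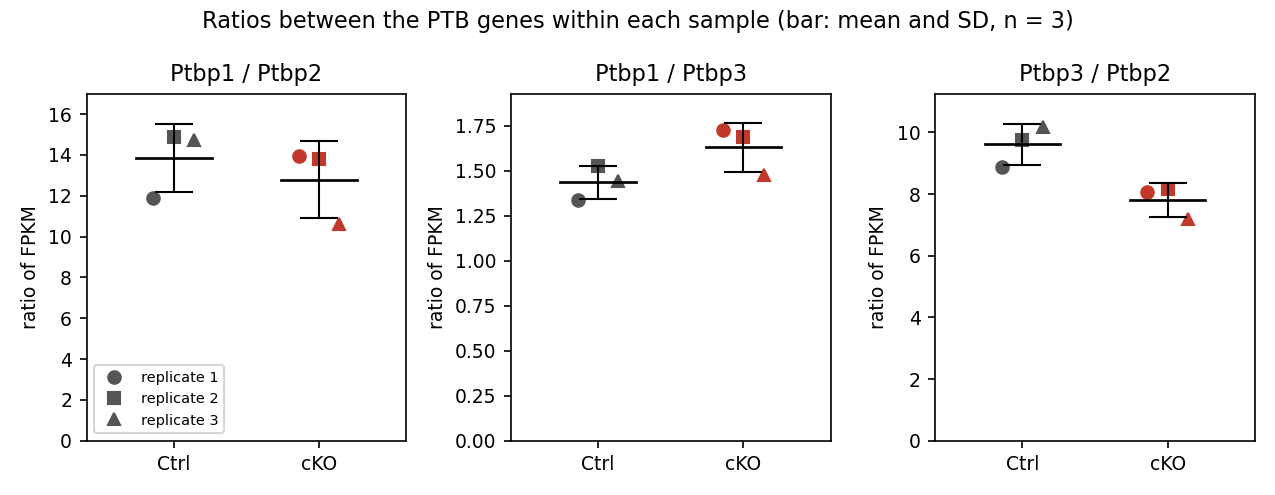
Ratios of FPKM between the PTB genes within each sample (vertical axes, each from 0) in Ctrl and cKO, with the shape of a point giving the replicate number and the bars the mean and SD of 3 samples. The ratio of *Ptbp3* to *Ptbp2* is 8.88 to 10.2 in Ctrl and 7.18 to 8.18 in cKO, and the other ratios overlap.

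The genes whose log2(FPKM + 1) followed each member most closely over the 6 samples were *Prrc2a* (Pearson's r = 0.984), *Kdm2a* (0.974) and *Mef2d* (0.967) for *Ptbp1*, *Ggps1* (0.995), *Akip1* (0.961) and *Ace* (0.949) for *Ptbp2*, and *Coro1b* (0.973), *Champ1* (0.973) and *Ttc14* (0.969) for *Ptbp3*. They were picked as the closest of 6821 or 6822 genes whose mean FPKM reached 5, over only 6 samples, which share their library scaling, so the values are a description.

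Several genes overlap the members on the genome. *Plppr3*, on the strand opposite to *Ptbp1*, overlaps it by 4297 bases and was at 1.526, 1.94 and 2.15 FPKM in Ctrl and 1.502, 1.35 and 1.43 in cKO. Whether the counting used strand is not given in the sources used here, so reads in the overlap cannot be told apart, but *Plppr3* was far below *Ptbp1* in level. *E130317F20Rik*, whose start overlaps that of *Ptbp1* by 545 bases on the opposite strand, was at 1.90 to 3.18 over the 6 samples. Within introns of *Ptbp2*, *Gm42664* was at 0.903 to 1.06 and *Gm43300* at 0.498 to 1.12, both on the strand of *Ptbp2*.

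The nearest protein-coding genes on either side of *Ptbp3* were lower in cKO as well. *Hsdl2*, a hydroxysteroid dehydrogenase-like gene that starts 32198 bases from *Ptbp3*, was at 11.3, 11.3 and 11.1 FPKM in Ctrl and 7.68, 10.5 and 9.20 in cKO (log2 fold change -0.28, unadjusted p = 0.049, limma adjusted p = 0.672). *Susd1*, 33234 bases away on the other side, was at 4.26, 3.84 and 3.28 in Ctrl and 2.91, 1.71 and 1.89 in cKO (log2 fold change -0.61, unadjusted p = 0.0106, limma adjusted p = 0.518). In both genes the cKO samples all lay below the Ctrl samples, as those of 6.03% of all genes did. Neither gene was followed through the other ways of processing. Beside *Ptbp1*, the nearest coding genes that do not overlap it were *Misp* and *Prtn3*. *Misp* was higher in cKO without overlap, at 2.39, 2.95 and 2.91 in Ctrl and 4.80, 4.54 and 3.20 in cKO (log2 fold change 0.46, unadjusted p = 0.0235, limma adjusted p = 0.590). *Prtn3*, a neutrophil protease, was at 5.63 in Ctrl replicate 1 and 0 to 0.565 elsewhere. The neighbours of *Ptbp2*, *Dpyd* and *Rwdd3*, both overlapped between the groups, with log2 fold changes of 0.10 (unadjusted p = 0.525) and -0.11 (unadjusted p = 0.528).

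*Hnrnpl* and *Hnrnpll* encode the closest relatives of the PTB proteins outside the family. *Hnrnpl* was at 31.7, 36.6 and 38.2 FPKM in Ctrl and 34.5, 30.7 and 35.3 in cKO, and *Hnrnpll* at 4.03, 3.996 and 4.19 in Ctrl and 3.51, 3.56 and 4.54 in cKO. Both overlapped between the groups, with log2 fold changes of -0.08 and -0.07. *Hnrnpl* thus had a level like that of *Ptbp1* in islets, whereas *Hnrnpll*, known from lymphocytes, was nearer to *Ptbp2*.

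Of 8 genes listed as co-repressors and partners of PTB proteins, 6 were tested, and 0 passed an unadjusted p of 0.05 in either direction, with a median log2 fold change of -0.05. They overlapped between the groups in all 6 cases. *Pcbp1*, a poly(C)-binding protein that binds granule mRNAs, was the most abundant at 95.7 to 120.3 FPKM in Ctrl and 102 to 116 in cKO. *Nono* and *Sfpq*, which act together in the paraspeckle, had the most negative values, -0.14 and -0.13, followed by *Pcbp2* at -0.11, while *Matr3* was at 0.01, *Pcbp1* at 0.02 and *Morf4l1* at 0.03. *Raver1*, a corepressor that binds PTBP1 directly, was listed at 0 in all samples, but nearly all of its locus is overlapped by the gene model *Gm38431* on the same strand, so its level cannot be read from this 0. *Raver2* was at 0.00898 to 0.0635 FPKM, under the filter.

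The remaining hnRNP genes, which encode the abundant proteins that coat nuclear pre-mRNA, were represented by 19 genes, all tested. Their log2 fold changes were negative for 15 and positive for 4, with a median of -0.06. The most abundant were *Hnrnpa2b1*, at 71.4 to 79.9 FPKM in Ctrl and 65.6 to 68.3 in cKO, and *Hnrnpa0*, at 55.4 to 65.4 in Ctrl and 55.9 to 63.8 in cKO. At the unadjusted threshold 0 were higher and 2 were lower, against 4.33% and 3.07% of all genes. *Hnrnph3* was at 16.02, 16.8 and 17.7 FPKM in Ctrl and 14.3, 13.8 and 12.4 in cKO (log2 fold change -0.30, unadjusted p = 0.0125, limma adjusted p = 0.545). *Hnrnpa1*, which like PTBP1 silences exons, was at 65.9, 62.0 and 58.5 in Ctrl and 52.9, 57.0 and 50.9 in cKO (log2 fold change -0.21, unadjusted p = 0.0483, limma adjusted p = 0.671), but its unadjusted p was under 0.05 in only 4 of the 17 other ways of processing, with a p of 0.0784 under the replicate block and 0.288 with voom. Together with *Hnrnpa2b1*, *Hnrnpd* and *Hnrnph1*, they were the 5 of the 19 whose cKO samples all lay below Ctrl, and 0 lay above, where 6.03% of all genes lay below and 7.11% above. The split in sign depended on a sample and on the scale, since 11 genes were negative and 8 positive without Ctrl replicate 1, and 8 negative and 11 positive with voom, where the median over all genes was 0.07.

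Other regulators of tissue-specific exons made up a list of 26 genes, 24 of which were tested, and 0 passed the unadjusted threshold. The median log2 fold change was 0.04. *Celf3*, a CELF protein of neural and endocrine cells, was the most abundant at 36.9, 48.4 and 51.4 FPKM in Ctrl and 46.4, 34.5 and 37.7 in cKO, above *Ptbp1* in all 6 samples. *Khdrbs3*, which encodes the splicing regulator SLM2, was at 13.8, 15.9 and 15.4 in Ctrl and 16.6, 16.9 and 17.6 in cKO (log2 fold change 0.17, unadjusted p = 0.0853, limma adjusted p = 0.714). With the neuronal genes *Elavl2* and *Elavl3*, both under 1 FPKM in every sample, it was 1 of 3 genes whose cKO samples all lay above Ctrl, as those of 7.11% of all genes did. *Srrm4*, the activator of neuronal microexons, was at 0.852 to 1.36 in Ctrl and 0.912 to 1.49 in cKO.

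The mRNAs of insulin and granule proteins that PTBP1 is known to bind were not uniform in direction. *Ins2* was at 154877, 170487 and 178676 FPKM in Ctrl and 109030, 124186 and 132945 in cKO, without overlap (log2 fold change -0.46). The limma test gave it an unadjusted p of 0.877 (adjusted p = 0.982), with a standard error of 2.87 where the variance was fitted as a trend on level, and an unadjusted p of 0.00635 without that trend. *Ins1* overlapped between the groups, at 61862 to 74399 in Ctrl and 63963 to 69820 in cKO. *Pcsk1*, the prohormone convertase that makes the first cut in proinsulin, was higher in cKO, at 128, 145 and 105 in Ctrl and 158, 171 and 187 in cKO (log2 fold change 0.45, unadjusted p = 0.0167, limma adjusted p = 0.546). *Ptprn*, which encodes the granule membrane protein ICA512, *Pcsk2*, which encodes the second convertase, and *Chga*, which encodes chromogranin A, overlapped between the groups, with log2 fold changes of 0.11, -0.11 and -0.12. *Pcsk1* was thus the 1 of these 6 mRNAs past the unadjusted threshold, which 4.33% of all genes passed as higher and 3.07% as lower. *Ins2* passed it as well without the trend and with voom (unadjusted p = 0.00789).

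The longest run of C and T in the 3′ UTR of each of these mRNAs is shown because such runs are what PTB proteins bind. Capitals mark the run, written 5′ to 3′ on the mRNA strand with T for U, and lower case the 4 bases on each side. They were read from GENCODE transcripts on GRCm38. For each gene this was the coding transcript with the longest 3′ UTR, among those tagged as principal where any were. Whether islets use that 3′ UTR was not measured.
Ins1 (chr19:52265056-52265066, plus strand): gacaTCTTTTTCTCTggca
Ins2 (chr7:142678686-142678692, minus strand): cctaCCCCTCTgcaa
Ptprn (chr1:75247125-75247136, minus strand): tcaaCCTTCTCCCTCTagca
Pcsk1 (chr13:75132356-75132369, plus strand): tgcaCCCTCCTTTTCCTTaaat
Pcsk2 (chr2:143814115-143814135, plus strand): ctcgCTTTTTTTTTTTTCTTTTCCTatct
Chga (chr12:102564859-102564868, plus strand): cagaTTCCTTCTCTgaac
Runs as long or longer were common in 3′ UTRs of like length (within a factor of 1.2), in 44.6% of them for the 7 bases of *Ins2*, 50.8% for the 11 of *Ins1*, 37.7% for the 12 of *Ptprn*, 66.4% for the 14 of *Pcsk1*, 21.4% for the 21 of *Pcsk2* and 51.5% for the 10 of *Chga*. A run of these letters is a description and not a site shown to be bound.

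The 2 mRNAs that the study tied to both PARN and PTBP1 were chosen by it with these samples in view, so their direction is no independent evidence. The paper also reports PARN binding to both RNAs, luciferase reporters and qRT-PCR. For PARN and PTBP1 it reports mass spectrometry of proteins precipitated with PARN from islets. It adds co-immunoprecipitation in a kidney and a β-cell line and colocalization in the latter. In the β-cell line it reports faster decay after *Parn* siRNA and altered levels after *Parn* or *Ptbp1* siRNA. There, insulin secretion fell after siRNA against either mRNA, and overexpressing either partly restored it after *Parn* siRNA. Those experiments are not part of the values here. *Slc30a8*, which encodes the zinc transporter ZnT8 of the insulin granule, was at 326, 454 and 437 FPKM in Ctrl and 271, 351 and 328 in cKO, with the highest cKO sample above the lowest Ctrl sample (log2 fold change -0.35, unadjusted p = 0.095, limma adjusted p = 0.726). Without Ctrl replicate 1, the lowest Ctrl sample for this gene, the log2 fold change was -0.50 with an unadjusted p of 0.0195. *Chst3*, which encodes a chondroitin sulfotransferase, was at 2.24 in Ctrl replicate 1 and at 0.0531 to 0.17 in the other 5 samples, so its log2 fold change of -0.52 (unadjusted p = 0.248) rested on the sample with the leukocyte RNA and was -0.01 without it.

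Genes known to hold exons under the control of PTB proteins were listed as 12, of which 11 were tested, with 2 higher and 0 lower at the unadjusted threshold, against 4.33% and 3.07% of all genes. The count lower was 1 with sample weights, with the replicate block and without Ctrl replicate 1 or 2. *Src*, the tyrosine kinase gene whose neuronal exon PTB proteins repress, was at 6.63, 8.23 and 6.05 FPKM in Ctrl and 9.72, 10.4 and 9.82 in cKO (log2 fold change 0.47, unadjusted p = 0.00622, limma adjusted p = 0.469). *Tpm1*, which encodes a tropomyosin with mutually exclusive exons, was at 10.2, 8.84 and 8.398 in Ctrl and 11.4, 12.6 and 12.1 in cKO (log2 fold change 0.37, unadjusted p = 0.0079, limma adjusted p = 0.481). Both were past the unadjusted threshold in 17 of 17 other ways of processing. *Bak1*, the apoptosis gene with a PTBP1-repressed exon, was at 5.79, 4.20 and 4.45 in Ctrl and 4.09, 3.37 and 3.54 in cKO, without overlap. Of the 11 tested genes, 2 had all cKO samples above Ctrl and 1 had them below, as 7.11% and 6.03% of all genes did. *Pkm*, the pyruvate kinase gene in which PTBP1 shifts the choice between 2 exons, was at 119 to 136 in Ctrl and 116 to 131 in cKO. The values are whole-gene levels and say nothing of which exons were used.

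**Figure D5:**
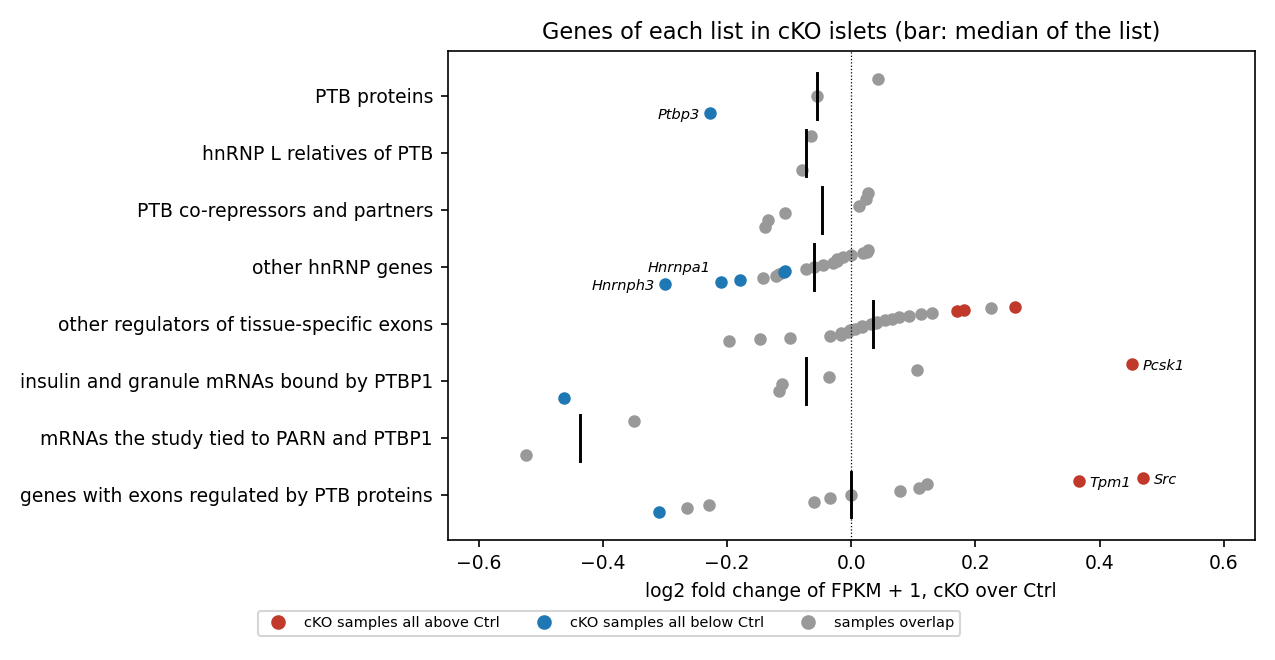
Log2 fold change of FPKM + 1 in cKO over Ctrl (horizontal axis) for each tested gene of the lists (rows), coloured by whether the 3 cKO samples all lay above or all below the 3 Ctrl samples, with the list median as a bar and names for genes with an unadjusted p under 0.05. *Ptbp3*, *Hnrnph3* and *Hnrnpa1* lie at -0.23, -0.30 and -0.21, and *Pcsk1*, *Src* and *Tpm1* at 0.45, 0.47 and 0.37.

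The markers of other cells moved between the samples in ways that the PTB values can be set beside. The summed FPKM of 5 endothelial markers was 90.8 to 106 in Ctrl and 116 to 147 in cKO, without overlap. The sum of 8 β-cell markers, led by the insulin genes, was 235454 to 275651 in Ctrl and 194978 to 217129 in cKO. The 6 stromal markers summed to 7.96 to 15.9 in Ctrl and 13.3 to 39.7 in cKO, and the 8 acinar markers to 6776 to 18212 in Ctrl and 8482 to 30677 in cKO, each with overlap. In log2 fold change, 5 of 5 endothelial, 6 of 6 stromal and 8 of 8 acinar markers were positive (medians 0.36, 0.98 and 0.80), and 9 of 9 leukocyte markers were negative (median -0.59). Of all 21211 genes tested, 9856 were positive and 11355 negative. The leukocyte fall rested on Ctrl replicate 1, with a summed FPKM of 983. Ctrl replicates 2 and 3 were at 160 and 154, and the cKO samples at 157, 255 and 257. The 5 α-cell markers (11076 to 16342 in Ctrl, 8753 to 16308 in cKO), the 3 δ-cell markers (4279 to 6984 and 5087 to 7986), the PP-cell hormone *Ppy*, the 4 ductal markers and the 6 markers of neurons and glia (35.9 to 40.5 and 37.4 to 44.8) overlapped in their sums as well. No marker of these lists was at 0 in all samples. The part of these cells in the *Ptbp3* difference was not tested. When the FPKM values were rescaled to a common total without *Ins1* and *Ins2*, the log2 fold change of *Ptbp3* was -0.22 with an unadjusted p of 0.0967.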

How the data were processed

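RNA-seq of islets from 3 Ctrl and 3 cKO samples was used. The authors extracted RNA with TRIzol, prepared libraries with a SMARTER mRNA kit and deposited FPKM values per gene on GRCm38 (mm10). The aligner, counter and annotation are not given in the sources used here. Reads were read back from FPKM and gene length; 100% of values came out whole within 0.05 reads.

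Log2(FPKM + 1) was compared with limma 3.58.1 in R 4.3.3 (empirical Bayes with trend, two-sided, Benjamini-Hochberg over the 21211 genes whose mean FPKM reached 0.1). The fit was also run on normal values simulated from its own variances. The shifts added there were larger than the *Ptbp3* difference, so those runs do not check differences of its size. Exact permutation tests used SciPy 1.17.1. Sequences came from GENCODE M21 transcripts and were aligned with Biopython 1.88. Of each list of related genes, all were named where it had 8 or fewer, otherwise the most abundant and those at an unadjusted p under 0.05; others named were chosen after their values were seen. The members, lists and tests were chosen with earlier results of these data known. The alternatives covered the pseudocount, filter, scaling, trend, sample weights, voom, a replicate block and each sample left out, 17 in all.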

Additional observations from a re-analysis of the deposited data

How the results depend on the processing

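*Ptbp3* was lower in cKO under 17 of 17 alternatives, many of which could not have turned its sign. Its unadjusted p was no longer under 0.05 when FPKM was rescaled without *Ins1* and *Ins2* (-0.22) or with voom on the reads (-0.15), and the cause was not tested; leaving out a sample gave -0.27 to -0.20, with 2 of 6 fits under 0.05. Its adjusted p ranged from 0.392 to 0.925. With voom, *Ptbp1* turned to 0.030 and *Ptbp2* went from 0.04 to 0.15. *Ptbp2* ranged from -0.012 to 0.093 when a sample was left out. Neither passed an unadjusted p of 0.05 in any of the 17. *Ins1* was at 0.052 with voom and at -0.11 to 0.018 when a sample was left out. With voom, 1500 genes were higher and 328 lower at an unadjusted p under 0.05. With sample weights 1245 were lower. Leaving out a sample gave 683 to 1231 higher and 401 to 1142 lower, the last being without Ctrl replicate 1, where 14 genes passed an adjusted p of 0.05. Of the 19 hnRNP genes, 0 to 3 were lower over the alternatives, and of the 24 exon regulators 0 to 4 were higher.

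The replicate number as a block left *Ptbp3* at -0.23 (unadjusted p = 0.0462), with 737 genes higher and 538 lower. Deviations of same-numbered samples had correlations of -0.171, -0.0219 and -0.0652, against -0.0775 to 0.130 for samples of different number. These values showed no pairing by number but cannot exclude it, and the labels do not say whether samples were paired. Depth limits *Ptbp2* most, with a counting error of 5.11% per sample against 1.96% for *Ptbp1* and 1.93% for *Ptbp3*.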

Other observations

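The genes of miR-124, a microRNA of neurons known to lower *Ptbp1* there, were looked up after the values of the PTB genes had been seen. The hairpins *Mir124a-1*, *Mir124a-2* and *Mir124a-3* were listed at 0 in all 6 samples. The host transcript *Mir124a-1hg* had 0 to 6 reads per sample and *Mir124-2hg* 0 to 1. Libraries of mRNA do not measure mature microRNAs, so the level of miR-124 itself in these islets cannot be read from them.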
